A study of Mus musculus with 16 samples.

Results

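Wt cells treated with doxycycline were compared between day 7 of monolayer differentiation and day 0, over all genes and by allele. The groups were chosen by their labels and hold 4 libraries, 2 at each day, of the 16 libraries in the series. The cells are female F1 129/Sv x Cast/Ei mouse ESCs in which the endogenous Xist promoter of the Cast X chromosome responds to doxycycline, and Spen is intact. Both groups had received doxycycline at 2 µg/mL, for 4 days in the day 0 group. In the day 7 group treatment came before differentiation. Whether it went on through differentiation is not stated in the sources used here. Both were sorted for dsRed positive cells. Day 0 cells were ESCs kept in serum and LIF on male feeder cells, which were removed by plating before differentiation. Differentiation medium lacked LIF. Time in differentiation and medium changed together, and time under doxycycline may have changed with them, so that they cannot be told apart. The 2 Wt libraries of day 0 without doxycycline served as the reference for allelic balance. Nothing in the labels ties replicates to separate lines, so that p-values measure the spread between these samples.

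ESCs hold the genes of the early embryo in an undifferentiated state through a network of transcription factors around Pou5f1, Sox2 and Nanog. When LIF is withdrawn this network shuts down and lineage genes become active. In female cells the same exit is accompanied by X chromosome inactivation, in which the noncoding RNA Xist coats the chromosome it is made from and silences most genes on it. Here doxycycline directs Xist to the Cast X, so that the share of reads from Cast reports silencing.

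Reads on genes numbered 14822867 and 9480867 at day 0 and 11019227 and 10719664 at day 7. Between 1285057 and 1945006 reads per library could be assigned to an allele. Replicates correlated at 0.952 at day 0 and 0.976 at day 7 in log2(CPM + 1), where CPM is the TMM-scaled count relative to library size, and libraries of different days at 0.888 to 0.899. Replicates of a day were not one library read again, since chi-square divided by its degrees of freedom came to 59.6 at day 0 and 19.97 at day 7.

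Total counts of 269 genes were higher and of 560 genes were lower at day 7, of 18150 tested, at an adjusted p under 0.05 in edgeR's quasi-likelihood test. These are 1.48% and 3.09% of the genes tested, 4.57% together. Counts of called list genes below are to be read beside these shares. Of the 829 genes, 758 were protein coding, and in each of the 829 the libraries of the 2 days did not overlap, against 57.9% of all genes tested. The falls were the deeper changes. The median log2 fold change was 1.88 among genes that rose and -2.52 among genes that fell, and 182 fell by more than 16 fold while 24 rose by as much. Both day 7 libraries had no read for 65 of the genes that fell. Across all genes tested the median log2 fold change was -0.0023. In bulk samples a fall in the number of cells of a type and a fall in RNA per cell cannot be told apart. With upper-quartile scaling the median of all genes moved to -0.14 and the calls to 202 higher and 713 lower. Leaving out any 1 of the 4 libraries left 80 to 107 higher and 186 to 398 lower, and 204 of the 829 genes passed in all 4 such fits.

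**Figure D1:**
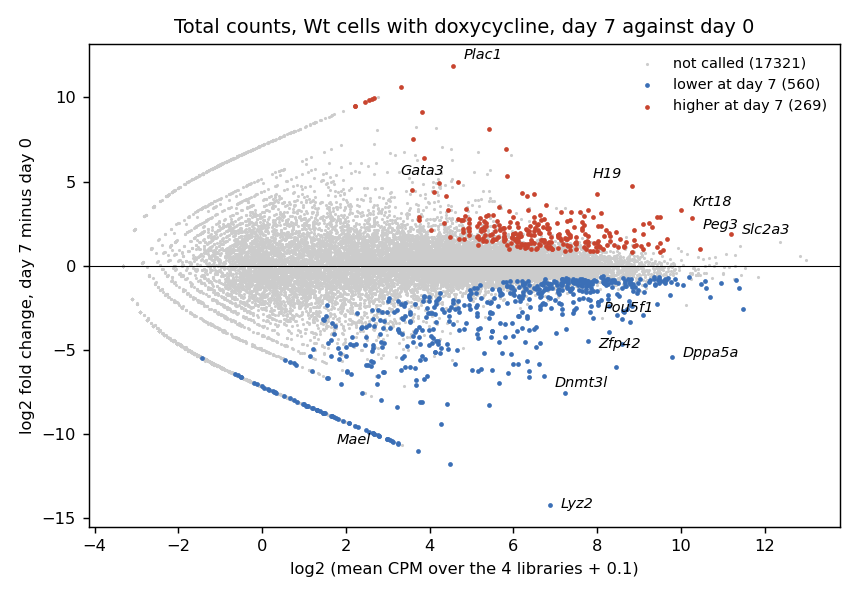
Log2 fold change of total counts between day 7 and day 0 (vertical axis) against the log2 of the mean CPM over the 4 libraries (horizontal axis), one point per gene tested. Red points are the 269 genes that rose, blue points the 560 that fell and grey points were not called. The median log2 fold change is -2.52 for the blue points and 1.88 for the red ones.

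Genes of naive pluripotency, the state of ESCs in LIF, fell at day 7. Of 16 listed and tested genes, 10 fell and none rose, the other 6 were not called, and the median log2 fold change was -3.22. Zfp42 (chromosome 8: 43295063-43306980, GRCm38), a zinc finger protein used as a marker of ESCs, stood at 361 and 477 CPM at day 0 and at 18.9 and 18.9 CPM at day 7. Its log2 fold change was -4.47 ± 0.23 (SE) with an adjusted p of 2.59e-06. Dppa5a, an RNA-binding protein of pluripotent cells, had 1240 and 2194 CPM at day 0 and 35.4 and 44.2 CPM at day 7. All 4 of these day 7 values lay far below the day 0 values.

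Esrrb, a nuclear receptor of the naive network, went from 130 and 81.5 CPM to 5.98 and 5.26 CPM. Fgf4, the growth factor that ESCs secrete, went from 111 and 204 CPM to 2.86 and 3.35 CPM. Tcl1, a cofactor of the Akt kinase, had 119 and 210 CPM at day 0 and 1.35 and 2.08 CPM at day 7. The deepest fall on the list was that of Dppa2, which with Dppa4 binds chromatin in early embryos. It dropped from 86.4 and 83.2 CPM to 0.0842 and 0.453 CPM, a log2 change of -8.26 ± 0.55 (adjusted p 7.95e-06). Nr0b1, Dppa3, Dppa4 and Tfcp2l1 also fell, by log2 changes of -5.82, -2.33, -3.74 and -2.71. Klf2, Klf4, Klf5, Tbx3, Prdm14 and Nr5a2 were lower at day 7 with non-overlapping libraries but did not pass the test, with log2 changes of -2.63, -1.41, -1.18, -1.29, -1.03 and -1.21. Such a separation downward was found for 28.6% of all genes tested.

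Core factors of pluripotency fell too. Of 15 genes 11 fell and none rose, with a median log2 fold change of -2.28. Pou5f1 (chromosome 17: 35506018-35510772), which encodes Oct4, stood at 459 and 390 CPM at day 0 and at 52.9 and 48.1 CPM at day 7, 8.41 fold lower (log2 -3.07 ± 0.29, adjusted p 0.000118). Nanog went from 286 and 160 CPM to 41.8 and 54.1 CPM (log2 -2.22 ± 0.33, adjusted p 0.00222). Sox2 went from 35.2 and 71.9 CPM to 12.4 and 5.80 CPM (log2 -2.55 ± 0.54, adjusted p 0.0187). Reads of all 3 were therefore still present at day 7. Utf1, a chromatin-bound protein of ESCs, fell from 744 and 856 CPM to 80.4 and 79.3 CPM. Lefty1 and Lefty2, secreted inhibitors of Nodal, and Tdgf1, the Nodal coreceptor, fell by log2 changes of -2.12, -2.55 and -2.28. Nodal itself did not pass the test (115 and 81.6 CPM against 52.1 and 72.7 CPM). Sall4 stayed among the more highly counted genes, with 665 and 894 CPM at day 0 and 553 and 621 CPM at day 7, and was not called.

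Some of the formative genes that mark the epiblast after implantation fell as well. Of 11 tested, 5 fell, none rose and 6 were not called, with a median log2 fold change of -1.99. Dnmt3b, a de novo DNA methyltransferase, went from 811 and 573 CPM to 112 and 93.8 CPM. Dnmt3a went from 450 and 524 CPM to 136 and 109 CPM. Their catalytically inactive partner Dnmt3l fell further, from 186 and 235 CPM to 1.26 and 3.17 CPM. Fgf5, Otx2 and Etv5 fell by log2 changes of -1.29, -3.004 and -2.26.

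**Figure D2:**
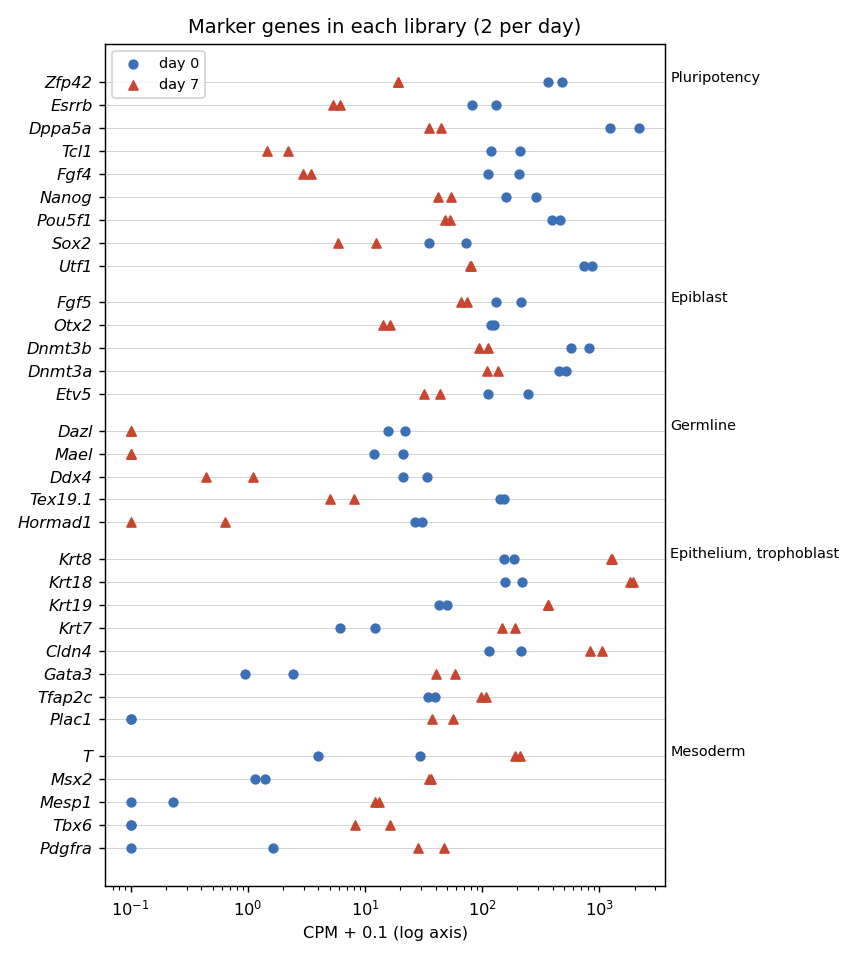
CPM plus 0.1 on a log axis for marker genes of 5 groups, picked after their values were seen, with day 0 libraries as blue circles and day 7 libraries as red triangles, 2 libraries per day. Pluripotency, epiblast and germline genes lie to the right at day 0, and epithelial, trophoblast and mesoderm genes lie to the right at day 7.

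Germline genes, some of which ESCs transcribe, fell at day 7. Of 14 listed, 8 fell and none rose, and the median log2 fold change was -4.60. Summed over the list, CPM was 301 and 306 at day 0 and 12.8 and 11.2 at day 7. Mael, a protein of the piRNA pathway, had 11.9 and 21.1 CPM at day 0 and no read in either day 7 library. Against a floor of 3 reads per library that is at least 62.9 fold lower. Dazl, an RNA-binding protein of germ cells, had 15.5 and 21.7 CPM at day 0 and no read at day 7, at least 71.0 fold lower. Ddx4, the germ cell helicase, went from 33.8 and 21.1 CPM to 0.337 and 0.997 CPM. Tex19.1, which restrains retrotransposons, was the most highly counted at day 0 and went from 142 and 154 CPM to 7.997 and 4.89 CPM. Hormad1 and Sycp3, proteins of the meiotic chromosome axis, fell by log2 changes of -6.69 and -3.72. Stk31 and Rpl10l also fell.

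Promoters of germline genes are shown because 8 of these genes fell together and a short motif recurs in part of the promoters. In RefSeq promoters (GRCm38.p6, 250 bases before to 50 after a transcription start), 13 of the 14 genes had a sequence. A total of 7 motifs were searched on both strands. They were the TATA box TATAAA, the CCAAT box CCAAT, the GC box GGGCGG, the E-box CACGTG, the E2F6 core TCCCGC, the octamer ATGCAAAT and the AP-1 motif TGANTCA, of which the GC box and the E2F6 core can share bases. The E-box, which reads the same on both strands, was singled out after these shares were seen. It occurred in 8 of the 13 promoters, 61.5%, and in 9.89% of 11455 promoters of tested protein-coding genes. Of the genes that fell 5 of 8 held it, and of those not called 3 of 5. Dazl, Tex19.1 and Rpl10l fell and do not hold it in this window. Among all 395 promoters of genes that fell the share was 11.6%.

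The other motifs were nearer to their share in all promoters or rested on few genes. The E2F6 core was in 53.8% of the 13 against 35.3% of all, the GC box in 61.5% against 63.2% and the CCAAT box in 38.5% against 38.6%. The TATA box and the AP-1 motif were in 3 of the 13 each, 23.1%, against 7.4% and 4.96% of all. The octamer was in 0 of the 13 and in 1.41% of all.

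Shown are 4 of the 5 promoters of fallen genes with the E-box, 5′ to 3′ on the strand of the gene, with the E-box in capitals. They were picked after the values were seen. Ddx4 lies on the minus strand at chr13:112652261-112652560, Mael on the minus strand at chr1:166238695-166238994, Hormad1 on the plus strand at chr3:95559427-95559726 and Sycp3 on the plus strand at chr10:88459337-88459636.
Ddx4: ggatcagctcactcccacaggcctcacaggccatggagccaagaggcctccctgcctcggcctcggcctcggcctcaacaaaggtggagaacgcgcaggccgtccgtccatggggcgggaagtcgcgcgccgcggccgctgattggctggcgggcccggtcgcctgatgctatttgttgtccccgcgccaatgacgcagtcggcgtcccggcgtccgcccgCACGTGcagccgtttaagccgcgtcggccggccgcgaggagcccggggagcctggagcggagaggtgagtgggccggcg
Mael: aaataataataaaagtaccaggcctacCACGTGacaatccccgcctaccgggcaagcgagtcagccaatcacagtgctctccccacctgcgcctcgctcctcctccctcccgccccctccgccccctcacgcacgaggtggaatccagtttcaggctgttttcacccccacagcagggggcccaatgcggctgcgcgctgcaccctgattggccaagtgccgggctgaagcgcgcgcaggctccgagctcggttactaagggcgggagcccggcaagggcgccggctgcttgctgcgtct
Hormad1: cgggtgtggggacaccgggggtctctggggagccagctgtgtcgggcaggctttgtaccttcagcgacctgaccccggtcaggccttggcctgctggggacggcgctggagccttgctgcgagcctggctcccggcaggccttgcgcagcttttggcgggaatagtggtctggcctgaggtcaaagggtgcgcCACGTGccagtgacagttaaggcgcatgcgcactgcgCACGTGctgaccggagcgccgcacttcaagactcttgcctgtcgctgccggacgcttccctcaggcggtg
Sycp3: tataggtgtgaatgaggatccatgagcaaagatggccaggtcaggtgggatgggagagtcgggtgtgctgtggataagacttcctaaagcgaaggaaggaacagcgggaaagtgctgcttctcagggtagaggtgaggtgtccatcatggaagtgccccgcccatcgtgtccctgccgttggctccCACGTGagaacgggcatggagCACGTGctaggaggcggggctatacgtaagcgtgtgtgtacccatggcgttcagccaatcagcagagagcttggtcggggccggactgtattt
Hormad1 and Sycp3 held 2 copies each and Ddx4 and Mael 1 copy each. A match is a description of the letters in the window. Promoters of the genes that rose held the TATA box TATAAA in 7.69% of 195, against 7.4% of all.

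Simple epithelial genes rose in part. Of 11 listed genes 5 rose and none fell, the remaining 6 were not called, and the median log2 fold change was 0.68. Krt8 and Krt18 encode the keratin pair of simple epithelia. Krt8 (chromosome 15: 101996698-102004482) went from 187 and 153 CPM to 1250 and 1287 CPM, 7.46 fold (log2 2.90 ± 0.24, adjusted p 2.94e-05). Krt18 went from 155 and 218 CPM to 1827 and 1917 CPM (log2 3.33 ± 0.29, adjusted p 6.17e-05). The day 7 replicates of each keratin lay close together and far above both day 0 libraries.

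Krt19 rose from 50.2 and 42.4 CPM to 361 and 364 CPM, and Krt7 from 6.06 and 11.97 CPM to 192 and 148 CPM. Cldn4, a tight junction protein, rose from 114 and 215 CPM to 824 and 1042 CPM. Cdh1, the adhesion molecule E-cadherin that ESCs already express, was at 567 and 265 CPM at day 0 and at 281 and 213 CPM at day 7 and did not pass the test. Cldn6, Cldn7 and Esrp1 were not called either.

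Of 7 tested genes listed for trophoblast, 3 rose and none fell, with a median log2 fold change of 1.53. Gata3, a transcription factor of trophectoderm and surface ectoderm, went from 0.838 and 2.31 CPM to 58.3 and 40.1 CPM (log2 4.99 ± 0.88, adjusted p 0.00666). Tfap2c, another such factor, went from 39.8 and 34.4 CPM to 107 and 96.8 CPM. Plac1, an X-linked placental gene, had no read at day 0 and 56.7 and 37.2 CPM at day 7, at least 185 fold higher than the floor. Cdx2, which defines trophectoderm, had 0.580 and 0 CPM at day 0 and 16.1 and 14.3 CPM at day 7 and did not pass the test (adjusted p 0.134). Prl3d1 and Tpbpa, markers of mature trophoblast, were at 0 in all 4 libraries.

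Mesoderm genes were mostly higher with wide errors. Of 19 tested in the primitive streak and mesoderm list, 2 rose and none fell, although the median log2 fold change was 2.72 and 17 of the 19 had non-overlapping libraries in that direction, which 29.3% of all genes tested had. T, the Brachyury factor of the primitive streak, went from 29.1 and 3.89 CPM to 192 and 211 CPM (log2 3.60 ± 0.78, adjusted p 0.0256). Msx2, a homeobox target of BMP signals, went from 1.29 and 1.05 CPM to 34.9 and 36.8 CPM. At day 0 T was higher in replicate 1 than in replicate 2.

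Tbx6, a factor of paraxial mesoderm, had no read at day 0 and 8.08 and 16.2 CPM at day 7 (adjusted p 0.0938). Mesp1, of nascent mesoderm, had 0.129 and 0 CPM at day 0 and 11.95 and 13.0 CPM at day 7 (adjusted p 0.198). Pdgfra, a receptor of mesoderm, had 1.55 and 0 CPM at day 0 and 47.0 and 28.2 CPM at day 7 (adjusted p 0.323). Each of these was separated between days and none passed the test. Mixl1, which marks the streak, overlapped between days, with 33.9 and 5.36 against 33.8 and 90.6 CPM. Fgf8, which marks it too, did not overlap, with 75.2 and 14.2 against 121 and 111 CPM, and was not called. Id2, a BMP target, rose from 35.6 and 24.8 CPM to 162 and 157 CPM, the only call among 15 tested targets of BMP, Wnt and TGF-beta. A rise was called for 1.48% of all genes tested.

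No endoderm gene of 20 passed the test, with a median log2 fold change of 1.47. Non-overlapping libraries with day 7 higher were found for 13 of the 20 and for 29.3% of all genes tested. Gata6, a factor of primitive endoderm, had 0.258 and 0 CPM at day 0 and 5.72 and 4.26 CPM at day 7. Sox17, another endoderm factor, had 7.67 and 2.31 CPM at day 0 and 29.2 and 16.4 CPM at day 7. In the neural list 2 of 11 tested genes fell and none rose, where 3.09% and 1.48% of all genes tested did so. Pax6 was at 3.55 and 2.21 CPM at day 0 and at 0.337 and 0 CPM at day 7, and Olig2 was at 0 in all 4 libraries. Tubb3, a tubulin of neurons, fell from 26.0 and 14.7 CPM to 0.421 and 0.544 CPM, and Stmn2 fell from 170 and 139 CPM to 35.8 and 49.4 CPM. Of the endothelial and blood list, Pecam1, an adhesion molecule that ESCs also carry, and Tek fell among 12 tested.

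Feeder cells are male fibroblasts, so fibroblast and Y-linked genes were read beside these results. The summed CPM of 30 mesenchymal genes was 526 and 527 at day 0 and 1293 and 1161 at day 7. Fn1, the matrix protein fibronectin, rose from 186 and 289 CPM to 751 and 651 CPM, Thy1 fell, and the other 28 were not called. Such rises and falls were called for 1.48% and 3.09% of all genes tested. Col1a1 was at 29.5 and 7.56 CPM at day 0 and at 55.5 and 49.9 CPM at day 7, and Lum was at 0 in all 4 libraries. The 7 Y-linked genes summed to 1.29 and 5.78 CPM at day 0 and to 0 in both day 7 libraries.

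Several genes of glycolysis fell at day 7. Of 14 tested, 6 fell, 1 rose and 7 were not called, with a median log2 fold change of -0.96. Ldha, the lactate dehydrogenase subunit of anaerobic tissues, went from 3127 and 2014 CPM to 753 and 682 CPM (log2 -1.84 ± 0.26, adjusted p 0.00166). Pkm, pyruvate kinase, went from 4014 and 3657 CPM to 1638 and 1457 CPM. Pfkp, a phosphofructokinase, fell furthest, from 250 and 316 CPM to 17.0 and 24.6 CPM. Hk2, Pfkl and Pgam1 fell by log2 changes of -1.67, -1.14 and -1.22. Slc2a3, the glucose transporter of embryo and placenta, rose from 812 and 1195 CPM to 3057 and 4244 CPM, while Ldhb, not on the list, which pairs with Ldha in the enzyme, rose from 323 and 475 CPM to 931 and 1144 CPM.

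Most proliferation genes were lower at day 7, and few passed the test. Of 18 tested, 3 fell and none rose, with a median log2 fold change of -0.57. Of all genes tested, 3.09% fell. In 15 of the 18 both day 7 libraries lay below both day 0 libraries, which was so for 28.6% of all genes tested. Ccne1, the cyclin of S phase entry, went from 608 and 751 CPM to 110 and 102 CPM. Mycn went from 855 and 608 CPM to 160 and 133 CPM, and Mcm3 fell by a log2 change of -0.97. Of 12 inhibitors of cyclin-dependent kinases and p53 targets Bax fell and the others were not called.

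Among protein-coding genes with a mean of at least 20 CPM, the largest falls outside the lists were in Lyz2, Aire, Sohlh2, Pla2g1b, Ooep, Sept1, Ina, Morc1 and Jam2. Lyz2, lysozyme, had 347 and 123 CPM at day 0 and no read at day 7, at least 896 fold lower. Aire, known from the thymus, had 34.4 and 54.9 CPM at day 0 and no read at day 7. Its annotated span overlaps that of Dnmt3l, so that their reads may be split between them. Pla2g1b, a secreted phospholipase, went from 157 and 443 CPM to 1.52 and 1.63 CPM. Ooep, a protein of oocytes and early embryos, went from 112 and 89.5 CPM to 0.505 and 1.09 CPM, and Sohlh2 and Morc1, both needed in germ cells, fell by log2 changes of -8.20 and -6.24.

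Large rises outside the lists were in Tmprss2, Aplnr, Pomc, Cited1, Peg12, Cryab and Sept4. Pomc, the precursor of melanocortins, had 2.64 and 2.94 CPM at day 0 and 113 and 109 CPM at day 7. Tmprss2, a serine protease of epithelia, had 0.516 and 0 CPM at day 0 and 90.7 and 78.5 CPM at day 7. Aplnr, the apelin receptor, known in early mesoderm, had 1.74 and 0 CPM at day 0 and 101 and 125 CPM at day 7.

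By number of reads, the most abundant genes that rose also included Rbbp7, Mdk, Ctnna1, Bex3, Gpc3, Tpm1 and Gsk3b, with log2 changes of 0.80 to 2.89. Those that fell included Ncl and Npm1, nucleolar proteins that fell by log2 changes of -0.86 and -1.15. Hsp90aa1 and Fkbp4, a chaperone and its partner, fell by log2 changes of -0.99 and -1.07. Set, Eif4g2, Eif4a1, Prdx1 and Rack1 fell as well.

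Imprinted genes, which are expressed from one parental allele in most tissues, moved both ways. Of 31 tested, 5 rose and 2 fell, where 1.48% and 3.09% of all genes tested did so. Peg3, a zinc finger gene, went from 275 and 333 CPM to 2372 and 1950 CPM (log2 2.83 ± 0.19, adjusted p 7.95e-06). H19, a noncoding RNA, went from 18.8 and 46.5 CPM to 1115 and 645 CPM (log2 4.76 ± 0.50, adjusted p 0.00023). Airn had 0.0645 and 0 CPM at day 0 and 33.9 and 21.9 CPM at day 7. Peg10 and Sgce, which are neighbours, rose, and Snrpn and Cobl fell.

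Reads of Peg3 and H19 came from both alleles, and other imprinted genes varied. Of Peg3 reads with an allele, 310 of 607 and 301 of 484 were from Cast at day 0 and 2159 of 4328 and 1583 of 3225 at day 7, shares of 0.511, 0.622, 0.499 and 0.491. H19 had 1102 of 1798 and 576 of 991 from Cast at day 7, shares of 0.613 and 0.581. Of 18 imprinted genes with more than 20 such reads on each day, 1 had a pooled share under 0.1 or over 0.9 at day 0 and 0 had one at day 7. Shares within these bounds ranged from near even, as for Snrpn (0.488 and 0.482 on the 2 days), to uneven. Impact had 0.310 and 0.253, and Rtl1 had 0.880 and 0.771. Peg3 and H19 thus rose with neither allele near 0.

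The Cast share of X-linked genes fell further during differentiation. A gene was read by allele where its reads of known allele exceeded 20 at each day, replicates added. Over the 255 such X-linked genes, the median share was 0.504 and 0.5 in untreated day 0 cells. It was 0.146 and 0.143 with doxycycline at day 0 and 0.0599 and 0.0303 at day 7. The means were 0.144 ± 0.0020 (SD, n = 2) and 0.0451 ± 0.0209 (SD, n = 2), a difference of -0.0992 that exceeds the spread between replicates. An exact permutation test of 2 against 2 libraries cannot give less than the two-sided p of 0.33 found here. Over 8451 autosomal genes the median was 0.493 and 0.5 at day 0 and 0.5 in both libraries at day 7.

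**Figure D3:**
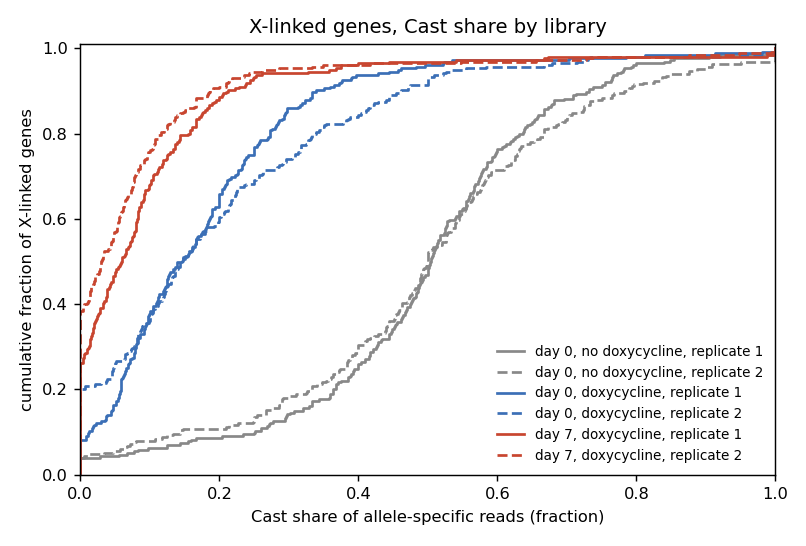
Cumulative fraction of the 255 X-linked genes (vertical axis) at or below each Cast share (horizontal axis) in 6 Wt libraries. Grey lines are untreated day 0 cells, blue lines day 0 with doxycycline and red lines day 7 with doxycycline, with replicate 2 dashed. The red lines rise most steeply near 0, the blue ones lie between and the grey ones centre near 0.5.

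The pooled share was lower at day 7 for 217 of the 255 X-linked genes, higher for 27 and equal for 11. For 151 genes, 59.2%, both day 7 libraries lay below both day 0 libraries, which was so for 17% of autosomal genes. For 7 genes, 2.75%, they lay above. Cast reads were absent from both day 0 libraries in 13 genes and from both day 7 libraries in 56. Without doxycycline, 10 genes had no Cast read in replicate 1 and 10 had none in replicate 2. A share under 0.1 in both libraries was found for 69 genes at day 0 and for 159 at day 7.

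Scaled to 1000000 allele-specific reads per library, Cast reads on X-linked genes other than Xist went from 3208 and 3289 to 1322 and 1114. Reads from the 129 X went from 15364 and 13955 to 15431 and 15830. The Cast level thus fell by 62.5% on average and the 129 level changed by 6.62%, less than the gap between the day 0 replicates. In total counts, the median log2 fold change of 715 X-linked genes was -0.02, and the difference from the median of 17399 autosomal genes was -0.019. Among X-linked genes 27 rose and 45 fell, 3.78% and 6.29%, against 1.39% and 2.96% of autosomal genes.

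Gene by gene, the Cast share of 8 X-linked genes fell at an adjusted p under 0.05 in edgeR's quasi-likelihood test, and none rose. Of all 8718 genes tested by allele 0.103% were called. Off the X, 1 gene was called, 0.0118% of those tested, Hsf2bp on chromosome 17, whose share rose on 18 and 10 reads at day 7. At an unadjusted p under 0.05, 87 X-linked genes were lower, 34.1%, against 0.367% of autosomal genes. DESeq2 called 19 X-linked genes lower and none higher. Dkc1, Atrx and Prps1 passed the threshold in each of the 4 fits that left out 1 library.

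Dkc1 (chromosome X: 75095854-75109777), which encodes the pseudouridine synthase dyskerin, had 231 of 847 and 146 of 672 reads from Cast at day 0 and 1 of 246 and 1 of 272 at day 7. The shares were 0.273 and 0.217 against 0.00407 and 0.00368. Its log2 odds of Cast against 129 fell by 6.19 ± 0.43 (SE, adjusted p 5.33e-06). Atrx, a chromatin remodeller, had 56 of 280 and 34 of 261 at day 0 and 6 of 307 and 3 of 236 at day 7, shares of 0.200, 0.130, 0.0195 and 0.0127. The Wilson 95% interval of the first day 7 library was 0.00899 to 0.0420 for Atrx and 0.000718 to 0.0227 for Dkc1, for counting error only. At day 7 both genes were read almost entirely from the 129 X.

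Among the 8 called genes Klhl13, an adaptor of a ubiquitin ligase, had the largest fall in share, from 0.496 and 0.444 to 0.0870 and 0.0980. Idh3g, a subunit of isocitrate dehydrogenase, went from 0.365 and 0.332 to 0.118 and 0.107. Prps1, which makes the precursor of nucleotides, went from 0.200 and 0.225 to 0.0426 and 0.0746. Alg13, Sat1 and 1110012L19Rik went from pooled shares of 0.199, 0.121 and 0.147 to 0.0582, 0.0107 and 0.00351. Untreated cells had pooled shares of 0.743 for Klhl13, 0.488 for Idh3g, 0.486 for Prps1, 0.595 for Dkc1 and 0.506 for Atrx. They were 0.357, 0.327 and 0.444 for Alg13, Sat1 and 1110012L19Rik, so that the genes did not start from one level. Klhl13, Prps1, Dkc1 and Alg13 fell in total counts as well, while Idh3g, Sat1 and Atrx were not called there.

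**Figure D4:**
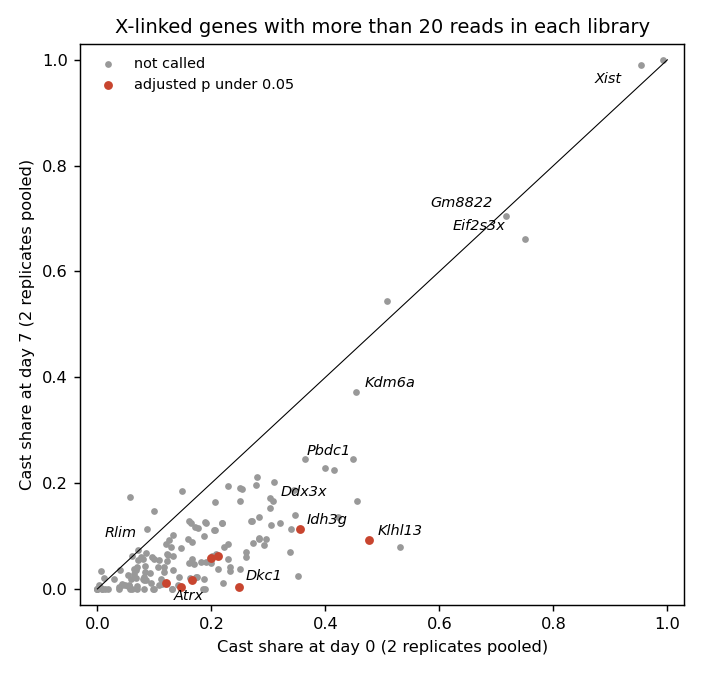
Cast share at day 7 (vertical axis) against Cast share at day 0 (horizontal axis), replicates pooled, for the 163 X-linked genes whose reads of known allele exceed 20 in each of the 4 libraries. Red points passed an adjusted p of 0.05, and the line marks equal shares. Of the points 147 lie below the line and 12 above it.

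In these 163 genes the pooled share had a median of 0.161 at day 0 and 0.0570 at day 7. The rank correlation across genes of the day 0 share with the day 7 share was 0.732, beside 0.750 between the day 0 replicates and 0.725 between the day 7 replicates. The share of a day pools both libraries, while the replicate values compare single libraries with fewer reads, so these correlations are not like for like. Genes in one library share its depth, so these are descriptions. The share exceeded 0.25 in both libraries for 31 genes at day 0 and for 6 at day 7. At day 7, 19 genes had no Cast read, among them Cask with 446 and 345 reads, Spin2c with 108 and 64 and Fndc3c1 with 84 and 81. For Spin2c, 0 of 108 reads allows a share of up to 0.0278. Cask was also low in untreated cells, with a share of 0.0857, where Spin2c had 0.429 and Fndc3c1 had 7 Cast reads of only 17. Some of the 19 genes had no Cast read in untreated cells either, so that their absence at day 7 is not a fall.

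Xist itself was read from Cast. Its total counts went from 181 and 282 CPM to 995 and 741 CPM, a log2 rise of 1.91 ± 0.48 (adjusted p 0.046). Cast gave 412 of 420 and 312 of 339 allele-specific reads at day 0 and 1539 of 1559 and 1029 of 1036 at day 7. These are shares of 0.981, 0.920, 0.987 and 0.993, where untreated cells had 28 of 44 and 8 of 56 reads from Cast, shares of 0.636 and 0.143 that differ widely. Tsix, the antisense partner, was at 7.74 and 21.01 CPM at day 0 and 3.03 and 3.08 CPM at day 7 and was not called. The kit does not keep strand, so reads in their overlap cannot be told apart. Of 27 genes of the inactivation machinery, 2 rose, Xist and the Polycomb subunit Pcgf5, and 2 fell, the Polycomb proteins Eed and Jarid2. Over all genes tested, 1.48% rose and 3.09% fell. Spen was at 20.1 and 31.7 CPM at day 0 and at 36.6 and 27.7 CPM at day 7 and was not called.

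Genes that are known to escape inactivation varied in their Cast share. The 8 genes of the escape list other than Xist that could be read by allele had a median pooled share of 0.269 at day 0 and 0.198 at day 7, beside 0.147 and 0.0509 for the 246 genes not on the list. The list gene Kdm6a, a histone demethylase, had shares of 0.484 and 0.407 at day 0 and 0.328 and 0.417 at day 7. Eif2s3x, a translation initiation factor, had 0.786 and 0.679 at day 0 and 0.667 and 0.655 at day 7, where untreated cells had 0.789. Pbdc1 went from 0.351 and 0.471 to 0.249 and 0.210, and Ddx3x, an RNA helicase, from 0.293 and 0.330 to 0.253 and 0.129. Shares of Kdm5c were 0.234 and 0.221 at day 0 and 0.244 and 0.125 at day 7. Utp14a had pooled shares of 0.161 and 0.129 on the 2 days. Shroom4 had 2 of 27 reads from Cast at day 0 and 0 of 37 at day 7. Ftx, a noncoding RNA gene beside Xist, had 3 of 22 and 0 of 31 at day 0 and 9 of 24 and 0 of 28 at day 7. Its Cast reads thus came from 1 library on each day. The pooled shares of Shroom4 and Ftx were below the median of the other genes at day 0. None of the 8 passed the test, and the difference between the list and the other genes was not tested. Outside the list, high day 7 shares were seen for Tbc1d25 (0.237 and 0.261), Gpkow (0.119 and 0.348), Ndufb11 (0.239 and 0.209) and Usp9x (0.185 and 0.243). In untreated cells their pooled shares were 0.693, 0.731, 0.597 and 0.507. Day 7 shares were also high for 3 features, Gm1947, Gm8822 and Hspa9-ps1. In untreated cells Gm1947 had all 119 reads from Cast, and the other features had pooled shares of 0.747 and 0.538.

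Readout genes of the X differed in how far they went. Hprt, a purine salvage enzyme, went from 0.110 and 0.0482 to 0.0158 and 0.0186 (adjusted p 0.0924). G6pdx went from 0.134 and 0.107 to 0.0930 and 0.0286. Rlim, the ubiquitin ligase that promotes Xist expression, had 0.0581 and 0.0898 at day 0 and 0.0992 and 0.0447 at day 7, with overlapping days and a log2 odds change of -0.05 ± 0.35. Pooled shares in untreated cells were 0.288 for Hprt, 0.422 for G6pdx and 0.537 for Rlim. Rlim was thus already low at day 0.

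By distance from Xist the day 7 share was lowest nearby. The 45 genes within 10 Mb of Xist had a median pooled share of 0.123 at day 0 and 0.0192 at day 7. The 35 genes at 10 to 30 Mb had 0.173 and 0.0594, the 105 genes at 30 to 60 Mb had 0.113 and 0.0353, and the 69 genes beyond 60 Mb had 0.207 and 0.124. The order with distance was not steady, and neighbouring genes share a region. By CPM in untreated cells, the 84 lowest genes had medians of 0.0854 and 0.0327 and the 85 highest 0.173 and 0.0616.

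**Figure D5:**
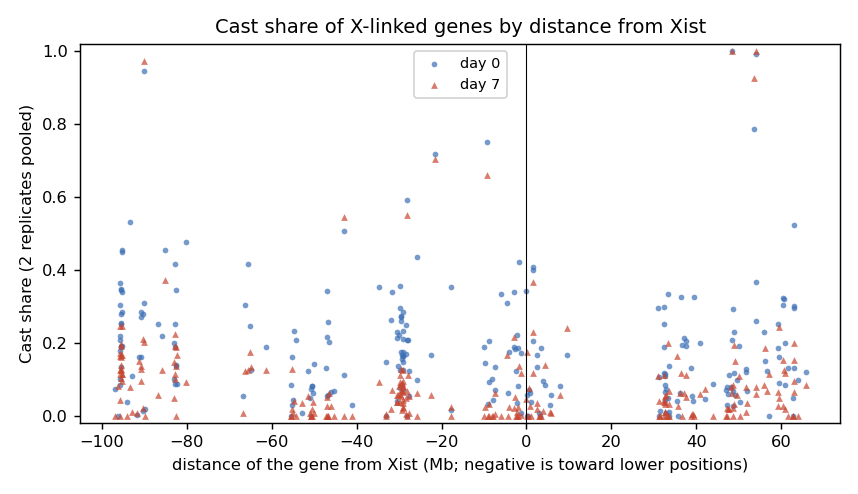
Pooled Cast share (vertical axis) of 254 X-linked genes against their distance from Xist in Mb (horizontal axis), at day 0 (blue circles) and day 7 (red triangles). Most triangles lie below 0.2, with a median of 0.0192 within 10 Mb of Xist and 0.124 beyond 60 Mb on either side, and single genes at several distances lie above 0.4.

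X-linked genes that rose in total counts were read mainly from the 129 X, as were X-linked genes in general. Of the 27, 23 including Xist had more than 20 allele-specific reads at day 7, with a median Cast share of 0.0627 and 15 of them under 0.1. Over all 255 X-linked genes read by allele, the median pooled share at day 7 was 0.0536. Of these, 67.8% and 75.7% lay under 0.1 in the day 7 libraries. Gpc3, a glypican, rose from 203 and 124 CPM to 1128 and 1292 CPM, with 5 of 515 and 2 of 542 reads from Cast at day 7. Cited1, a transcriptional coactivator, rose from 6.38 and 7.67 CPM to 134 and 144 CPM, with 0 of 138 and 2 of 151 reads from Cast. Plac1 had 17 of 109 and 14 of 65 reads from Cast, shares of 0.156 and 0.215. Xist, by contrast, rose from the Cast allele.

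Across the 19 autosomes the median share moved by -0.0147 to 0.0156 between days. Chromosome 12 had a median share of 0.656 at day 0 and 0.658 at day 7. The other autosomes lay between 0.477 and 0.504 at day 7.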

How the data were processed

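RNA-seq was analysed in Wt cells with doxycycline at day 0 and day 7, 2 libraries each. The authors made Smart-seq2 libraries, sequenced 50 bp single-end reads, aligned them with HISAT2 2.2.1 to mm10 masked at strain variants, split them by allele with SNPsplit, handled them with SAMtools 1.10 and counted them with HTSeq 0.12.4, and the deposited files hold raw counts for 55421 genes as 129/Sv, Cast/Ei and unassigned reads. Strand setting and removal of duplicates are not given in the sources used here. Lines for reads on no gene (31.8% to 38.6% of the reads in these libraries) were left out. Positions were taken from GENCODE M21 on GRCm38, where 55154 genes were found.

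The 3 columns were summed for total counts. Genes passing filterByExpr (min.count 10) were scaled by TMM and tested with edgeR 4.0.16 (R 4.3.3) in one quasi-likelihood fit of all 16 libraries. For alleles, each library entered as 2 columns, 129 and Cast, that shared one library size, and the model had library terms and the interaction of allele with group. A gene entered where its reads of known allele exceeded 20 at each day, replicates added. P-values were adjusted by Benjamini-Hochberg over all genes tested. DESeq2 1.42.0 and the other alternatives are given with their effect in the closing section. Both fits were tested on simulated data. Figures and shares used Python 3.11.15, pandas 2.3.3, scipy 1.17.1 and matplotlib 3.10.9.

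The gene lists and the genes named were chosen with earlier results of these data known. Named were list genes, the 12 protein-coding genes with the largest change in each direction (mean of at least 20 CPM, days not overlapping), the 12 most abundant called in each direction, X-linked genes by fall or level of the Cast share, autosomal calls, and 8 readout genes. A group with no read was set against a floor of 3 reads per library, and folds against it are lower bounds. Intervals and floors cover counting error only. Replicate numbers are shared as numbers alone between days: the differences between replicates correlated at 0.0755 over 14797 genes. Motifs were searched in promoters outside chromosome 18. Some genes that the rules above would name are not reported here.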

Additional observations from a re-analysis of the deposited data

How the results depend on the processing

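No called gene of either test changed direction under any alternative run. Counts of calls in total counts (269 higher, 560 lower) became 687 and 913 with the 4 compared libraries alone, 427 and 803 with the 8 Wt libraries, 658 and 1234 with DESeq2 and 534 and 884 without a filter. RLE scaling and a minimum count of 30 kept the counts within 1.5 times, and upper-quartile scaling lowered the share of higher calls among all calls from 32.4% to 22.1%. Leaving out 1 library gave 80 to 107 higher and 186 to 398 lower, where the filter also kept more genes. X-linked calls by allele (8 lower, none higher) became 5 with the 4 libraries alone, 19 with DESeq2 and 4 to 6 without 1 library. Calls on other chromosomes (1) became 2 with the 4 libraries alone, 4 with the 8 Wt libraries, 4 with DESeq2, 2 with a library size per allele, 0 with more than 20 reads in each replicate, 0 with more than 50 reads and 0 to 1 without 1 library. The cause of these moves was not tested.

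Replicate numbers do not pair the samples by any label. With the replicate number as a block, 291 genes were higher and 552 lower in total counts, and the allelic test called 6 X-linked genes lower and 0 on other chromosomes. In the blocked fit Lum, with no read in the 4 libraries, had a log2 value of -0.10.

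The fall of the median X-linked share (-0.0992) was -0.0746 with reads summed over genes, Xist included, and -0.106 to -0.0784 without 1 library. The shift of X-linked total counts against autosomes (-0.019) ran from -0.10 to 0.017 without 1 library, within the spread between libraries. Of genes not called by allele, without 1 library the log2 odds change ran from -1.03 to 0.13 for Kdm5c, from -0.73 to 0.50 for Rlim, from -0.30 to 0.17 for Gm8822, from -0.00850 to 2.72 for Gm1947 and from -3.58 to 5.32 for Ftx. Of genes named as called in total counts, 23 to 45 missed the threshold without 1 library, 9 with the 4 libraries alone and 5 with the 8 Wt libraries. Among 219 listed genes that were not called, 9 to 23 changed sign without 1 library and 1 to 4 under DESeq2, the smaller sets of libraries or the block. With 2 libraries a day, low-count lineage genes had wide errors.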

Other observations

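Of the X-linked genes that changed in total counts, 3 are described here, chosen after their values were seen. Slc7a3, an amino acid transporter, fell by 4.66 on the log2 scale, with 141 Cast reads of 1148 allele-specific reads at day 0 and 0 of 33 at day 7. Pim2, a serine/threonine kinase, fell by 3.90 on the log2 scale, with 261 of 1959 reads from Cast at day 0 and 11 of 107 at day 7. Usp11, a deubiquitinase, rose by 2.29 on the log2 scale, with 12 of 138 reads from Cast at day 0 and 74 of 653 at day 7. Its Cast share of 0.0870 at day 0 and 0.113 at day 7 did not pass the allelic test (log2 odds change 0.32 ± 0.57, adjusted p 1 in edgeR).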
